A study of Mus musculus with 6 samples.

Results

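The BPI fold genes encode secreted proteins built like the bactericidal/permeability-increasing protein. They were taken here as the 10 mouse genes Bpifa1, Bpifa2, Bpifa3, Bpifb1, Bpifb2, Bpifb3, Bpifb4, Bpifb5, Bpifb6 and Bpi. Each member was found by its symbol, as a row of the deposited table that the platform annotation assigns to that gene alone. All 10 were measured, with 1 row each, among 19938 genes in all. The family was picked with earlier results of these data known, above all the limma call on Bpifb1. The family was thus chosen by the measured difference of Bpifb1 between mutant and control arrays, which is given as a description. Where a gene had several rows, the row was to be selected on the highest mean over the 6 arrays, a choice no member needed.

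RNA came from larger proximal airways cut by hand from stained frozen lung sections of 9-week-old mice on a mixed C57BL/6 and 129X1 background. The 3 mutant arrays carried RNA of Scgb1a1-cre:Foxp1flox/flox:Foxp4flox/flox mice, and the 3 control arrays that of Scgb1a1-Cre mice without floxed genes named in their labels. The driver is active in Scgb1a1-expressing club cells of the airway lining. The deletion passes to the descendants of a recombined cell, while cells of other origin in the dissected wall keep both forkhead genes. The study asked how the airway epithelium contributes to asthma, and its methacholine tests of lung function were not analysed here. Nothing in the labels ties each sample to its own animal, so a p-value here speaks of the spread among these samples, part of which may be technical. In dissected tissue, fewer cells of a type and less RNA per cell cannot be told apart.

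Airway secretory cells and glands release BPI fold proteins into the fluid that lines the airways and the mouth. The family belongs to a group of lipid-binding proteins that includes the lipopolysaccharide-binding protein and the phospholipid transfer protein. Short members, named Bpifa, have a single BPI-like domain, whereas long members, named Bpifb, have a pair of them. Most of the genes lie next to each other in a cluster on mouse chromosome 2, and Bpi itself lies elsewhere on that chromosome.

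Facts of the whole series bear on the values below as follows. Values are log2 expression values, so a difference of 1 is a doubling, and array medians lay between 5.89 and 5.95. Foxp1 averaged 9.30 ± 0.05 in mutants and 9.53 ± 0.10 in controls (SD, n = 3 each). Foxp4 averaged 8.22 ± 0.40 in mutants and 8.91 ± 0.13 in controls (SD, n = 3 each). The groups did not overlap for either gene, as for 15.0% of all genes. Neither gene passed limma's test (adjusted p = 0.444 for Foxp1 and 0.339 for Foxp4). How far these probe sets cover the floxed exons is not known here, so they check the labels only in part. Scgb1a1, the club cell marker of the driver, averaged 12.54 in mutants and 12.29 in controls. On the first principal component over all genes, control 1 (-11.3) lay at the edge of the mutants (-23.0 to -11.3), while controls 2 and 3 lay at 38.4 and 29.4. No detection calls were used, so no gene could be called above or below background.

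The upstream sequences of Bpifb1, Bpifa1 and Bpifa2 are shown because these are the members whose group means lay farthest apart and because the mutants carry floxed forkhead genes. Each line gives the 250 bases before an annotated start, from RefSeq on GRCm38.p6, plus strand, 5′ to 3′. Capitals mark forkhead-like words, which were searched on both strands. A word was counted where it has A or G first, then C or T, then a run of 3 A bases, then C or T, then A, as in GTAAACA, which gives 8 words of 7 bases.
Bpifb1 upstream start, chr2:154190568-154190817: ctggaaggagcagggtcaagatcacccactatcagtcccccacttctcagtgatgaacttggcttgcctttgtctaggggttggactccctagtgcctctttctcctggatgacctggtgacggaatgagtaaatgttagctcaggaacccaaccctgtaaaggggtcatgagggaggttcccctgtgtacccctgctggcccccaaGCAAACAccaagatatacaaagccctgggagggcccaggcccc
Bpifb1 downstream start, chr2:154200130-154200379: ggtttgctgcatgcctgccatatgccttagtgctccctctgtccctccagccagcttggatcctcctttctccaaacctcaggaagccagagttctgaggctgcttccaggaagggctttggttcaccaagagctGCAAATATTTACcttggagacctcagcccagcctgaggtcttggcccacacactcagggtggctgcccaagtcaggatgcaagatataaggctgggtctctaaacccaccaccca
Bpifa1, chr2:154142630-154142879: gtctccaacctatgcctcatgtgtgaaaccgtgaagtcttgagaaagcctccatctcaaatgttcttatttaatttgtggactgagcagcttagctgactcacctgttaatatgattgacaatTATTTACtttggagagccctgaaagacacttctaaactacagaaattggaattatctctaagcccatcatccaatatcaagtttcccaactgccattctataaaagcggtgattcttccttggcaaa
Bpifa2, chr2:154008026-154008275: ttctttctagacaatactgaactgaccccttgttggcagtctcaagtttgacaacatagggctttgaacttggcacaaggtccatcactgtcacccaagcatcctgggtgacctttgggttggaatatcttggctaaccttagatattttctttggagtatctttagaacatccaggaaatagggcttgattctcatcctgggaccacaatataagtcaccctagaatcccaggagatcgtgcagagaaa
The window of the downstream Bpifb1 start held 2 matches, GCAAATA on the gene's strand and TATTTAC, which is GTAAATA on the opposite strand, and these overlap in the bases TA. They begin 115 and 110 bases before the start. The window of the upstream start held GCAAACA 43 bases before it. Bpifa1 held TATTTAC 127 bases before its start, and the Bpifa2 window held no match. Of the 12 windows of the 10 members 5 held at least 1 match, against 24.9% of all 32851 windows of that length in the same table. At least 2 matches stood in 6.61% of all windows. The word TATAA on the gene's strand lay within 50 bases before the downstream start of Bpifb1, before Bpifa1 and before Bpifa2, as in 5 of the 12 windows and 4.93% of all windows. A match is a match of letters and shows no binding. The words were chosen with these sequences in view.

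Among the members only Bpifb1 passed limma's test over all genes, and it fell. Bpifb1, also called Lplunc1, is a long member secreted by airway goblet cells and glands. It read 8.84, 8.19 and 9.01 on the mutant arrays, against 12.42, 12.40 and 11.90 on the control arrays. All mutant arrays lay below all control arrays, and the gap between the groups exceeded the range within either. The means were 8.68 ± 0.43 in mutants and 12.24 ± 0.29 in controls (SD, n = 3 each). The log2 difference was -3.56 (SE 0.246, 95% interval -4.15 to -2.97; limma adjusted p = 0.0067), a fall of 11.8-fold. Of all 19938 genes, only 1 had a more negative difference, the chemokine gene Ccl20. The call was lost without control 2, where the difference was -3.48 (limma adjusted p = 0.057). It was also lost with the replicate block of the closing section (limma adjusted p = 0.129). Without mutant 1 it passed only at the threshold (difference -3.64, limma adjusted p = 0.0499).

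**Figure D1:**
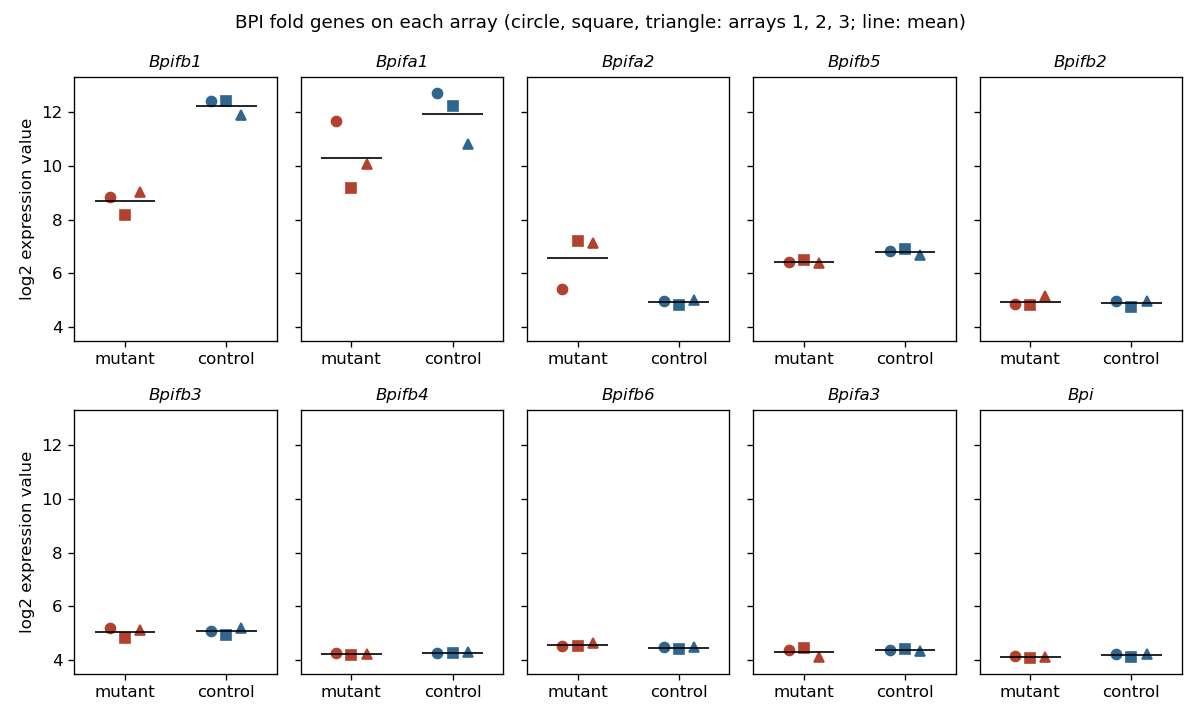
Log2 expression values (vertical axis) of the 10 BPI fold genes, 1 panel per gene, with mutant arrays left of control arrays, marker shape for the array number and a line at each group mean. Bpifb1 separates by a log2 difference of -3.56, Bpifa1 is spread widely in both groups, Bpifa2 is high on mutants 2 and 3, and 6 genes stay between 4.07 and 5.19 on every array.

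Bpifa1, also called SPLUNC1 or Plunc, is a short member of the upper and large airways known to act on bacteria and on the epithelial sodium channel. It read 11.67, 9.18 and 10.07 on the mutant arrays, against 12.70, 12.24 and 10.81 on the control arrays. The groups overlapped, because mutant 1 lay above control 3. The spread within groups was wide, 2.49 among mutants and 1.89 among controls. The means were 10.31 ± 1.26 in mutants and 11.92 ± 0.99 in controls (SD, n = 3 each). The difference of -1.61 (SE 0.73, 95% interval -3.36 to 0.15) did not pass limma's test (adjusted p = 0.538). That interval contains both 0 and a difference nearly as large as that of Bpifb1. Without mutant 1 the difference was -2.29, without control 3 it was -2.16, and without mutant 2 it was -1.04, none of which passed (limma adjusted p = 0.452, 0.611 and 0.638). With array weights estimated by limma it was -0.99.

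Bpifb1 and Bpifa1 were then compared within each array, as the change of one relative to the other. Bpifb1 minus Bpifa1 was -2.83, -0.99 and -1.06 on the mutant arrays, against -0.28, 0.15 and 1.10 on the control arrays. The 2 genes come from different probe sets, so only the change between groups can be read. The groups did not overlap. The mean was -1.63 ± 1.05 in mutants and 0.32 ± 0.70 in controls (SD, n = 3 each), a difference of -1.95. An exact two-sided permutation test gave p = 0.1, the smallest value 3 against 3 arrays allow. This test therefore cannot pass a threshold of 0.05 with 3 arrays per group, and no other test was run on this difference. The fall of Bpifb1, by which the family was chosen, enters this difference. Its direction is thus partly built into the choice, and the values are given as a description.

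Bpifa2, the parotid secretory protein, is a short member best known from saliva, where it binds bacteria. It read 5.42, 7.22 and 7.13 on the mutant arrays, against 4.97, 4.82 and 5.02 on the control arrays. All mutant arrays lay above all controls, with mutants 2 and 3 far above and mutant 1 close to them. The means were 6.59 ± 1.02 in mutants and 4.93 ± 0.11 in controls (SD, n = 3 each). The difference of 1.66 (SE 0.468, 95% interval 0.53 to 2.78) did not pass limma's test over all genes (adjusted p = 0.329). Its control values lay within 4.07 to 5.19, the range of the 6 dim members below. RMA compresses differences of dim probe sets, so the size of this difference is uncertain. Without mutant 1, the mutant array nearest the controls, the difference was 2.24 and passed (limma adjusted p = 0.0106). No other fit that left out an array passed (limma adjusted p = 0.243 to 0.726). Mutants 2 and 3, the arrays with the most Bpifa2, had the lowest values of Bpifa1.

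Bpifb5 is a long member that lies next but one to Bpifb1 among the measured genes of the cluster. It read 6.44, 6.48 and 6.37 on the mutant arrays, against 6.84, 6.90 and 6.70 on the control arrays. The groups did not overlap, and the spread within each was small. The difference was -0.38 (SE 0.0871, 95% interval -0.59 to -0.17), or 1.30-fold, and did not pass limma's test (adjusted p = 0.216). Leaving out each array in turn gave -0.44 to -0.34.

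The remaining 6 members were dim on every array, between 4.07 and 5.19. They were Bpifb2, Bpifb3, Bpifb4, Bpifb6, Bpifa3 and Bpi, the last of which is stored in neutrophil granules in humans. A relative of Bpifb3 is known from the olfactory lining of rats, Bpifa3 is known from testis, and variants of BPIFB4 have been linked to long life in humans. Their differences lay between -0.08 (Bpifa3) and 0.10 (Bpifb6), where the signs of Bpifa3, Bpifb2 and Bpifb3 changed with single arrays left out and that of Bpifb3 with median centring, and their limma adjusted p between 0.741 and 0.975. Every 95% interval lay within -0.33 to 0.33. RMA compresses differences of dim probe sets, so these intervals do not bound the change in RNA where a probe set reads near background.

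As a family, 1 of 10 members passed limma's test, against 0.266% of all genes in either direction. The member that passed was lower in mutants, as were 0.0301% of all genes, and 0.236% of all genes passed as higher. Nothing is read from that share, because the family was chosen with the call known. At an unadjusted p under 0.05 there were 3 members, against 10.1% of all genes. The groups did not overlap for 5 of the 10, against 15.0% of all genes. Of these, 3 were lower in mutants, against 5.64% of all genes, and 2 were higher, against 9.33%. Among the 5, Bpifb4 and Bpifb6 differed by only -0.05 and 0.10. The median difference of the members was -0.06, beside 0.02 over all genes, and 7 members lay below 0, against 45.4% of all genes.

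**Figure D2:**
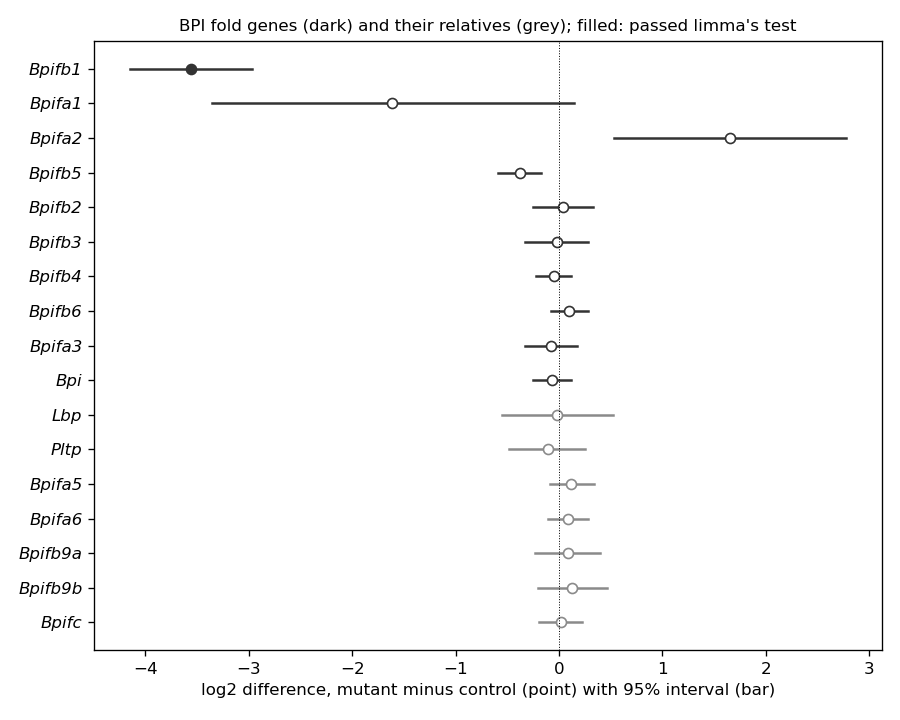
Log2 difference, mutant minus control (horizontal axis), with 95% intervals from limma for the 10 BPI fold genes in black and 7 relatives in grey, filled where the gene passed at an adjusted p under 0.05. Only Bpifb1, at -3.56, is filled; the relatives lie between -0.11 and 0.13.

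Beyond the members, 7 further genes of the superfamily were measured, and limma called 0 of them, with 0 also at an unadjusted p under 0.05. Lbp, which carries lipopolysaccharide to its receptor, read 12.03, 11.31 and 11.93 in mutants, against 11.53, 12.04 and 11.75 in controls. Pltp, the phospholipid transfer protein, read 11.19, 10.77 and 11.11 in mutants, against 11.36, 11.02 and 11.03 in controls. Both were bright, and their groups overlapped. Their differences were -0.02 (SE 0.222) and -0.11 (SE 0.152). Bpifa5, Bpifa6, Bpifb9a, Bpifb9b and Bpifc differed by 0.02 to 0.13. The median of the 7 was 0.09.

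The position of the members on chromosome 2 was examined next. In RefSeq order the cluster runs from Bpifb2 to Bpifb9b, and 14 of its genes were measured, among them Cdk5rap1, which lies between Bpifb1 and Bpifb5 and is no BPI fold gene. Cdk5rap1 differed by 0.29 (95% interval 0.02 to 0.56, limma unadjusted p = 0.0384) and did not pass limma's test (adjusted p = 0.469). Bpifa2, Bpifa1 and Bpifb1, with differences of 1.66, -1.61 and -3.56, stand close together in that order. Bpifa3 and Bpifa5, which lie between them, had differences of -0.08 and 0.12. The median over the measured genes of the cluster was 0.06. Of the 5 measured genes on either side, 10 in all, limma called 0, and 0 reached an unadjusted p under 0.05. Their differences ran from -0.06 for E2f1 to 0.13 for Mapre1, with a median of -0.01.

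**Figure D3:**
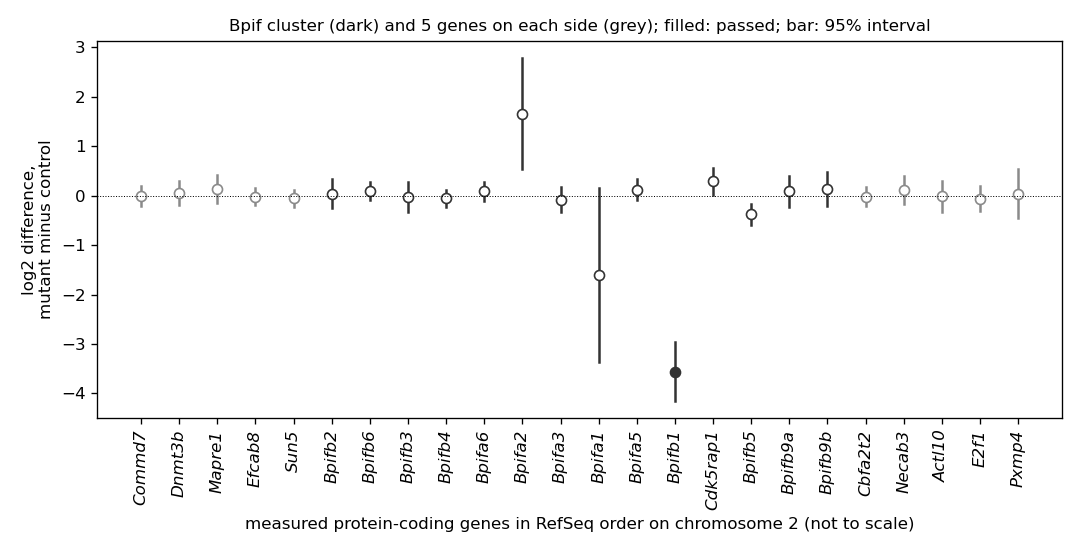
Log2 difference, mutant minus control (vertical axis), with 95% intervals for the measured genes of the Bpif cluster (dark) and 5 measured genes on each side (grey), in their order on chromosome 2 and not to scale. Only Bpifa2 (1.66), Bpifa1 (-1.61) and Bpifb1 (-3.56) lie more than 1 from 0.

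Genes with array profiles like those of Bpifb1 and Bpifa1 were found by the mean absolute distance over the 6 arrays, in log2 units, after each gene's own mean was subtracted. The 6 nearest to Bpifb1 were Tacr1 (distance 0.468), Csn2 (0.575), Msln (0.66), A2ml1 (0.666), Blnk (0.691) and Ccl20 (0.759). Tacr1 encodes the receptor for substance P, Csn2 a casein, Msln mesothelin, A2ml1 a protease inhibitor, Blnk an adaptor of B cell signalling and Ccl20 an epithelial chemokine. They had lower values than Bpifb1 on control 1 once centred, so none of them matched its even level over the controls. Of these, Csn2 passed limma's test (adjusted p = 0.0246, and only without control 1 among the 6 fits that left out an array). Tacr1 (adjusted p = 0.0519), Ccl20 (0.0723), Msln (0.122), Blnk (0.274) and A2ml1 (0.306) did not pass. Likeness to Bpifb1 was measured over the same arrays and contrast, so a lower mean in mutants is built into the choice of these genes.

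Bpifa1 had a much closer neighbour. Muc16, which encodes a large membrane mucin of the airway surface, lay at a distance of 0.163. It read 9.22, 6.27 and 7.05 on the mutant arrays, against 9.92, 9.37 and 8.20 on the control arrays. Its order of arrays was that of Bpifa1, with mutant 1 above control 3. Muc16 was chosen by likeness over these same arrays, so a shared pattern is built into the choice. The next were Wfdc13 (0.414), Adh7 (0.439), Alox15 (0.452), Gtsf1l (0.498) and Cdh26 (0.506). Adh7 encodes a retinol dehydrogenase of upper epithelia and Alox15 a lipoxygenase of airway epithelium. In all 6 the groups overlapped and none passed limma's test.

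**Figure D4:**
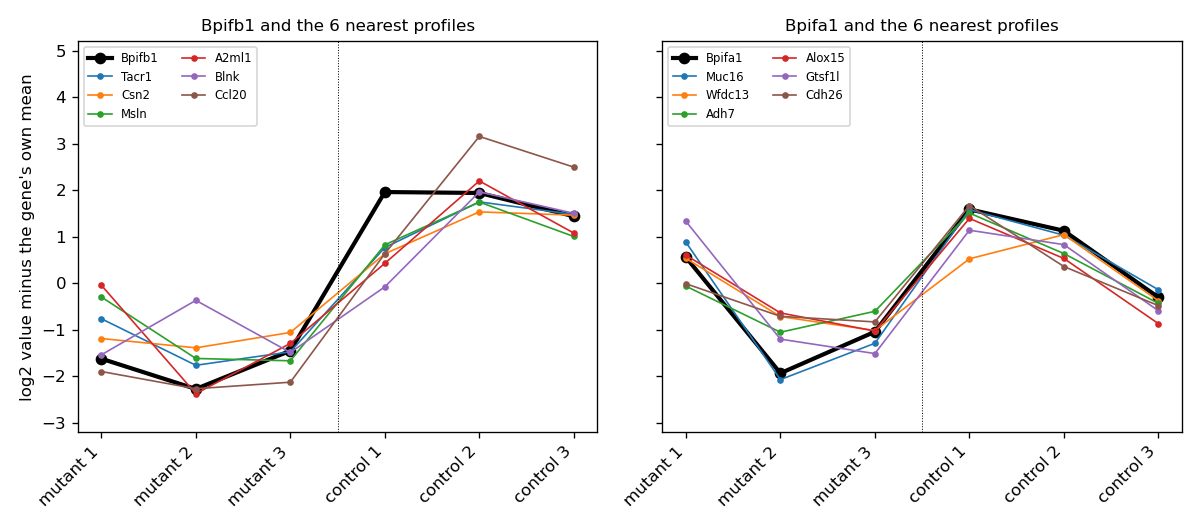
Log2 values minus each gene's own mean (vertical axis) on the 3 mutant and 3 control arrays for Bpifb1 (left, black) and Bpifa1 (right, black) with the 6 genes of nearest profile. Bpifb1 is level within each group, whereas Bpifa1 and Muc16, at a distance of 0.163, vary together within both groups. Muc16 was chosen by that distance, so the shared pattern is built in.

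For Bpifa2 and Bpifb5 the nearest profiles were taken after their values were seen. Spink1, a secreted trypsin inhibitor, was nearest to Bpifa2 at 0.232, with 6.11, 7.63 and 7.63 in mutants and 4.63, 5.29 and 5.42 in controls. Its difference of 2.01 did not pass limma's test (adjusted p = 0.211). Among the 6 nearest to Bpifa2, Ooep (difference 2.19) and Krtap17-1 (1.67) passed, both at a limma adjusted p of 0.0246. Of the 6 fits that left out an array, Ooep passed in those without mutant 1 and without control 1, and Krtap17-1 only in that without control 1. The nearest to Bpifb5 was Bsdc1 at 0.0308. Likeness was again measured over the same arrays and contrast, so the direction of all these genes is built into the choice.

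Genes around the family were read from lists by role, which share some genes and so are not separate observations. Tff2, Agr2 and Muc5b, for example, stand in both the defence and the goblet cell list. Lyz1 stands in both the defence and the alveolar type 2 list. Over all genes 10.1% had an unadjusted p under 0.05 and 45.4% lay below 0. Of 15 measured genes of lipopolysaccharide recognition limma called 0, and 4 had an unadjusted p under 0.05. Cd14, the co-receptor, differed by -0.62, whereas the adaptor gene Tirap (0.51), the receptor gene Tlr4 (0.45) and Ly96 (0.40), which encodes its partner MD-2, lay above 0. Most of the list went the other way, with 11 of the 15 below 0 and 4 above. The lowest was Ly86, named after its value was seen, at -1.55 (limma adjusted p = 0.546). Of 35 other secreted defence genes of the airway 0 passed and 13 had an unadjusted p under 0.05. In that list the lysozyme gene Lyz1 (0.88), the resistin-like gene Retnla (1.20), the trefoil factor gene Tff2 (0.60) and Agr2 (1.33), which helps mucins fold, had the smallest p and lay above 0. In all 20 of the 35 lay above 0 and 15 below, and the lowest was Wfdc18, named after its value was seen, at -2.93 (limma adjusted p = 0.469). The medians of these lists were -0.11 and 0.10, beside 0.02 over all genes. Of 19 gland and salivary genes, read because Bpifa2 is known from saliva, 0 passed, 5 had an unadjusted p under 0.05 and the median was -0.04. Their mean level was 6.17, 6.06 and 6.17 on the mutant arrays, against 6.37, 6.29 and 6.22 on the control arrays. Within the list Slc12a2 (0.85) and Aqp5 (0.51) lay above 0, and Bhlha15 (-1.16) and Kcnn4 (-1.17) below. The part of gland tissue in the Bpifa2 values was not tested. Of 17 regulators of secretory cells 0 passed, 2 had an unadjusted p under 0.05 and the median was 0.14.

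Markers of the cell types in the dissected wall were set beside Bpifb1. The mean level of 12 club cell genes was 11.30, 11.37 and 11.37 on the mutant arrays, against 11.06, 11.08 and 11.15 on the control arrays. Of these Upk3a, a uroplakin, rose (difference 1.24, limma adjusted p = 0.0264), but it passed in only 1 of 6 fits that left out an array, the one without control 1. The list's median was 0.17. The 10 goblet cell and mucus genes averaged 9.65, 8.71 and 9.46 in mutants, against 8.24, 9.13 and 8.53 in controls, with a median difference of 0.68. Of these 0 passed limma's test and 5 had an unadjusted p under 0.05, against 10.1% of all genes. Muc5b, the main secreted mucin of the airway, averaged 12.51 ± 0.33 in mutants, 0.76 above controls. The goblet cell means of the groups overlapped, and the club cell means did not. The 14 ciliated cell genes had a median of -0.10 and the 11 basal cell genes one of 0.25, with 0 passing in each and 1 and 2 at an unadjusted p under 0.05.

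Immune markers differed widely between arrays. The 12 B and plasma cell genes averaged 5.73, 7.80 and 5.96 on the mutant arrays, against 6.26, 9.46 and 9.28 on the control arrays. All 12 lay below 0, against 45.4% of all genes, with a median of -1.92. Of the 12, 0 passed limma's test and 1 had an unadjusted p under 0.05, against 10.1% of all genes. The groups overlapped for every one of them. Control 1 had a B and plasma cell mean below that of mutant 2 and the highest Bpifb1 value of all arrays, 12.42. Without control 1 the Bpifb1 difference was -3.47 (limma adjusted p = 0.0122). That fit kept controls 2 and 3, the arrays with the highest B and plasma cell means. The part of B and plasma cells in the Bpifb1 values was not tested. The 16 neutrophil genes had a median of -0.10, with 0 passing and 2 at an unadjusted p under 0.05.

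**Figure D5:**
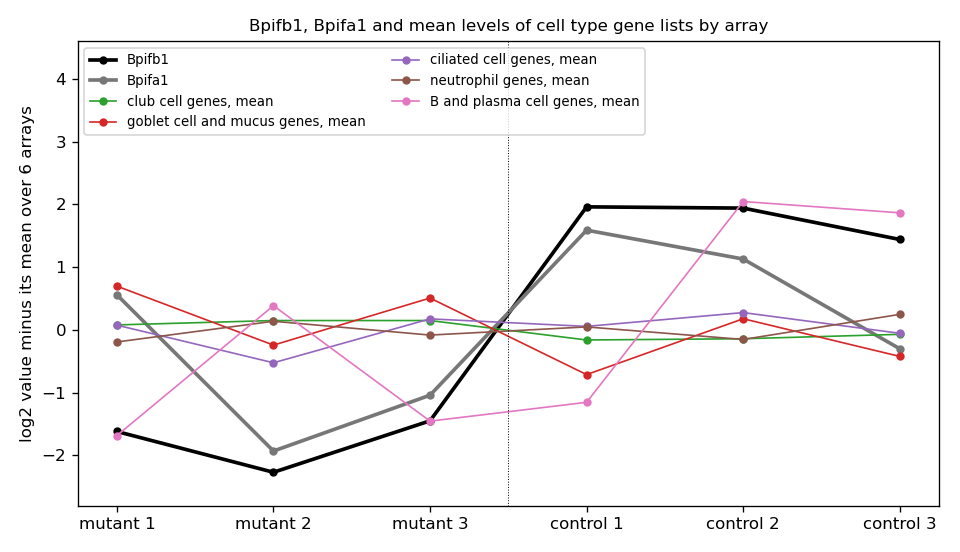
Log2 values of Bpifb1 and Bpifa1, and mean log2 levels of the genes in 5 cell type lists, each minus its own mean over the 6 arrays (vertical axis), on mutant and control arrays. Bpifb1 is high on all 3 controls, while the B and plasma cell mean is high on controls 2 and 3 and low on control 1 (6.26).

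Other tissue that a dissected airway can carry was read in the same way. Alveolar type 2 genes had a median of 0.39 over 10 genes, cardiac muscle genes one of -0.06 over 10, adipocyte genes one of -0.20 over 9, smooth muscle genes one of 0.03 over 9 and nasal and olfactory genes one of 0.06 over 8. Limma called 0 genes in each of these lists. At an unadjusted p under 0.05 there were 6 alveolar type 2 genes, 1 nasal gene and 0 in the other lists. Over all genes the share at that p was 10.1%. The cardiac mean, 9.27, 10.34 and 8.03 in mutants against 10.60, 8.43 and 9.06 in controls, differed widely within both groups. The part of these tissues in the values of the members was not tested.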

How the data were processed

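The submitters deposited log2 values of each probe set on each of 6 Affymetrix mouse gene arrays. Per the submitters' processing notes oligo, RMA and limma were used. Versions and genome build were looked for and not given in the sources used here. Of 35556 rows, 21789 named 1 gene in the platform annotation, 1621 several and 12146 none. The highest-mean row was kept for each of 19938 genes. The values were used as deposited in limma 3.58.1 (R 4.3.3), with genotype as the only term, a two-sided test and Benjamini-Hochberg adjustment over all genes at 0.05. Standard errors and 95% intervals are limma's.

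Bpifb1 minus Bpifa1 was tested by exact permutation of the arrays. Members and lists were chosen with earlier results of these data known. Named genes were the members, their relatives, up to 4 genes of each list by smallest p plus those that passed, 5 measured genes on each side of the cluster, the 6 nearest profiles of Bpifb1 and Bpifa1, and Foxp1, Foxp4 and Scgb1a1. Nearest profiles of Bpifa2 and Bpifb5, and Ly86 and Wfdc18, were added after their values were seen. Predicted transcripts were left out. RefSeq's GRCm38.p6 tables gave gene order and upstream sequences only, since the array's build is unknown. The procedure was tested on simulated data with independent noise for each gene. That simulation lacks the differences between arrays that many genes share here, so it does not test how the calls stand up to them. The number of arrays limits the precision. Alternatives are given in the closing section. Other tools were Python 3.11.15, pandas 2.3.3, scipy 1.17.1 and matplotlib 3.10.9.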

Additional observations from a re-analysis of the deposited data

How the results depend on the processing

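The direction of Bpifb1 held in all 14 alternatives (-3.73 to -3.22), and it passed in 12. With the replicate block its difference was -3.56 (limma adjusted p = 0.129), and no member and 0 genes in all passed limma's test, with 1945 genes at an unadjusted p under 0.05. The labels do not say whether arrays of the same number were paired. Deviations from the group means correlated at 0.136, -0.091 and -0.04 between arrays of the same number. With 3 arrays per group these values cannot settle whether the numbers stand for a pairing. Leaving out each array in turn moved Bpifb1 between -3.73 and -3.31 and the count of members that passed between 0 (without control 2) and 2 (without mutant 1, Bpifb1 and Bpifa2). Over all genes, 53 passed as reported, 291 with array weights and 82 with an intensity trend. Leaving out one array gave 9 to 388. Dropping control 1, 2 or 3 left 388, 9 or 10 genes, and dropping mutant 1, 2 or 3 left 16, 24 or 15. The cause was not tested. Bpifb1 minus Bpifa1 kept its direction in all 9 alternatives that could be run on it, from -2.27 to -1.35. That direction is partly built in, since the family was chosen by the fall of Bpifb1. Members near 0 changed sign. With single arrays left out, Bpifa3 ranged from -0.14 to 0.03, Bpifb2 from -0.06 to 0.10 and Bpifb3 from -0.10 to 0.09. Bpifb3 was 0.01 with median centring. With the lowest 40% of genes left out, 3 members remained and Bpifb1 passed. The low values of the 6 dim members limit what their differences can show.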
